A study of Mus musculus with 9 samples.

Results

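The genes described here make, store, recapture and sense dopamine or mark subsets of midbrain dopaminergic (mdDA) neurons. They are the synthesis genes *Th*, *Ddc* and *Gch1*, the transporters *Slc18a2* and *Slc6a3*, the receptors *Drd2* and *Ret*, and the subset markers *Aldh1a1*, *Cck* and *Calb1*. These 10 genes were found by their symbols among the 51912 genes of a table of normalized read counts, through the Ensembl identifiers of the GRCm38 annotation, and all 10 had a mean above the minimum used for testing. RNA of midbrains dissected from C57Bl/6 embryos at E14.5 was sequenced in 9 libraries. There were 3 wild-type (*Nkx2.9*+/+), 3 heterozygous (*Nkx2.9*LacZ/+) and 3 homozygous (*Nkx2.9*LacZ/LacZ) libraries. The targeted allele carries LacZ where the first exon of *Nkx2.9* was, so the heterozygous embryos had 1 intact copy of this homeobox gene and the homozygous embryos had none, throughout the body. Each library held 2 pooled midbrains of 1 genotype, and p-values therefore measure the spread between pools. The sample labels and the methods name midbrain, whereas the title of the series names cortex. The study asked whether loss of *Nkx2.9* changes *Slc6a3*, which it calls *Dat*, and the subset markers *Aldh1a1* (*Ahd2*) and *Cck* at the stage when mdDA neurons differentiate.

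The columns of the table show a genotype but not which replicate they hold, and a library is therefore called by its column here. By their labels, columns 1 to 3 are homozygous, 4 to 6 heterozygous and 7 to 9 wild-type. The targeted gene, *Nkx2-9*, had 4, 6 and 3 reads in columns 1 to 3, 0, 7 and 4 in columns 4 to 6, and 0, 2 and 2 in columns 7 to 9, and so was not lower in the library group labelled homozygous. Wild-type, heterozygous and homozygous therefore mean the labels of the libraries throughout, and every direction is that of the labels, which these reads leave unchecked. Reads on genes ranged from 1692963 in column 7 to 5942192 in column 8, and 1 read is worth 2.59 normalized counts in the first and 0.702 in the second. The summed normalized count of the midbrain markers *En1*, *En2*, *Pax7*, *Otx2* and *Lmx1b* was 1218 to 1327 in the wild-type, 967 to 1488 in the heterozygous and 952 to 1129 in the homozygous libraries. Homozygous and wild-type sums thus did not overlap. Of single genes tested, 9.52% did not overlap, and no such share was taken for sums. *Pax7* (log2 fold change -0.63, SE 0.22, unadjusted p = 0.0119) and *En1* (-0.60, SE 0.25, unadjusted p = 0.0277) were lower in the homozygous libraries in limma. These were 2 of the 5, beside 1.22% of all genes tested in this direction. *En2* (-0.44) also lay below 0. *Otx2* (0.045) and *Lmx1b* (0.014) did not. The sum of 6 mdDA transcription factors was 783 to 1234. The 4 forebrain markers were all detected, with a sum of 114 to 182 that overlapped between homozygous (117 to 170) and wild-type libraries (114 to 153). *Neurod6* among them was higher in homozygous than in wild-type libraries (0.72, SE 0.33, unadjusted p = 0.0481, limma). This was 1 of the 3 tested, beside 2.6% of all genes in either direction. Whether it came from forebrain tissue was not tested. *Emx2*, the most abundant of the 4, was at -0.18 (SE 0.20) and *Emx1* at 0.33 (SE 0.89), and *Tbr1* was under the minimum for testing. Column 4 had 2584074 reads on genes, the fewest after column 7, beside a median of 4921748. It stood apart in several of these lists, as described beside the results it touches. Y-linked genes summed to at most 2.26 in columns 1 to 3 and to 0 in column 7 and 3.26 in column 6, against 505 to 1075 in the other 4 libraries, so the sex of the pooled embryos was not balanced between the labelled genotypes.

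Dopamine is made from tyrosine. Tyrosine hydroxylase (*Th*) makes L-DOPA with the cofactor tetrahydrobiopterin, whose synthesis begins with GTP cyclohydrolase (*Gch1*), and aromatic L-amino acid decarboxylase (*Ddc*) turns L-DOPA into dopamine. The vesicular transporter VMAT2 (*Slc18a2*) loads dopamine into vesicles, the plasma membrane transporter DAT (*Slc6a3*) takes it back up, and the receptor *Drd2* senses it on the releasing neuron and its targets. *Gch1*, *Ddc* and *Slc18a2* are shared with serotonergic neurons, and all but *Slc6a3* and *Drd2* of these genes serve noradrenergic neurons as well, so *Slc6a3* is the most restricted to dopaminergic cells.

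RefSeq promoter sequence (GRCm38.p6) was matched by symbol for 8 of the 10 genes and searched for 5 motifs on both strands, in windows from 250 bases before to 50 bases after a start site. The synthesis genes and *Slc18a2* are shown, and each holds at least 1 match. *Aldh1a1* holds matches as well and is not shown. The stretches run from 110 bases before the start to 10 bases after it, in the direction of transcription. Capitals mark the motif named for each gene.
*Th*, chr7:142899986-142900105, minus strand: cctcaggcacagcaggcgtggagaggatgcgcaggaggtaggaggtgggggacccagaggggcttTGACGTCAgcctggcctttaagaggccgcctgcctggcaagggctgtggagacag
*Slc18a2*, chr19:59260768-59260887, plus strand: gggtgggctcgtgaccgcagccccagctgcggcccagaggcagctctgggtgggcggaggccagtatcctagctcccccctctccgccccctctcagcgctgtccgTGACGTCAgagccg
*Ddc*, chr11:11898135-11898254, minus strand: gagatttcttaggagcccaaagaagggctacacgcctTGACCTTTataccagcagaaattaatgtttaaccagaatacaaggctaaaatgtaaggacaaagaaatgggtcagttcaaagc
*Gch1*, chr14:47189404-47189523, minus strand: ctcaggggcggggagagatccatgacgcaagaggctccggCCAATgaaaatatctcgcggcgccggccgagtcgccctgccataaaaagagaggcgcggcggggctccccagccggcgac

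In *Th* and *Slc18a2* the capitals mark a full cyclic AMP response element, TGACGTCA, which reads the same on both strands. It lay 45 to 38 bases before the start of *Th* and across the start of *Slc18a2*, and it occurs in 1.79% of the 32851 promoter windows. In *Ddc* they mark the reverse strand of AAAGGTCA, the element that NR4A2 binds as a monomer, which occurs in 1.51% of windows and here overlaps a reverse TATAAA. In *Gch1* they mark CCAAT, which occurs in 37.4% of windows and was added after the sequences had been seen. CCAAT was also found in *Aldh1a1* and in another window of *Ddc*, which are not shown. TATAAA (13.6% of windows) was found on the reverse strand of *Ddc* and *Gch1*. It lay 68 to 63 bases before the start of *Ddc*. In *Gch1* it lay 188 to 183 bases before the start, outside the stretch shown. TAATCC, a bicoid-type motif bound by Pitx factors (7.06% of windows), was found in none of the windows of the 8 genes. These are matches of letters in a window, with no measurement of binding.

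*Gch1* was the lowest of the synthesis genes and the only one of the 10 genes whose homozygous libraries all lay below the wild-type ones. The same held for its heterozygous libraries. *Gch1* (ENSMUSG00000037580, chr14:47153895-47189413, minus strand) had normalized counts of 44.0, 23.2 and 33.9 in the wild-type columns 7 to 9. It had 13.0, 16.2 and 15.5 in the heterozygous columns 4 to 6 and 21.8, 17.4 and 10.3 in columns 1 to 3. The wild-type libraries were all above the other 6, though column 8 and column 1 were only 23.2 against 21.8. The mean was 33.7 ± 10.4 (SD, n = 3) in the wild-type libraries, 14.9 ± 1.67 (SD, n = 3) in the heterozygous and 16.5 ± 5.81 (SD, n = 3) in the homozygous ones.

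On the log2(normalized count + 1) scale, *Gch1* was lower by a log2 fold change of -0.999 (SE 0.36) in homozygous than in wild-type libraries, a ratio of 0.50 (95% interval 0.293 to 0.856; unadjusted p = 0.0148, limma). In the heterozygous libraries it was lower by -1.08 (SE 0.36), a ratio of 0.472 (95% interval 0.276 to 0.808; unadjusted p = 0.0093, limma). Both comparisons use the same 3 wild-type libraries. With Benjamini-Hochberg adjustment over the 16993 genes tested, limma gave an adjusted p of 1.00 in each, and the exact permutation test gave p = 0.1, the smallest that 3 libraries against 3 allow. Between homozygous and heterozygous libraries the log2 fold change was 0.08 (SE 0.36). Over the alternatives for the homozygous comparison the unadjusted p of limma ranged from 0.00807 to 0.0807 and that of the heterozygous one from 0.00529 to 0.0425. It was above 0.05 without column 3 (log2 fold change -0.71, unadjusted p = 0.0807, limma) and without column 7 (-0.79, unadjusted p = 0.0633, limma), both in the homozygous comparison. *Gch1* rests on 8 to 46 reads per library, 202 in all.

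Serotonergic neurons also use *Gch1*, and their markers were read beside it. The summed normalized count of *Tph2*, *Fev*, *Slc6a4* and *Htr1a* was 80.0 to 111 in the wild-type libraries, 65.3 to 91.3 in the heterozygous and 30.1 to 70.4 in the homozygous ones, and all 4 markers were detected. *Tph2* (-1.75, SE 0.46, unadjusted p = 0.00155) and *Slc6a4* (-1.07, SE 0.46, unadjusted p = 0.0354) were lower in libraries labelled homozygous than in wild-type ones in limma. They are the serotonin-synthesizing enzyme and the serotonin transporter. These were 2 of the 4, beside 1.22% of all genes tested in this direction. *Fev* was at -0.61 (SE 0.67) and *Htr1a* at -0.27 (SE 0.36), and neither passed. *Tph2* rests on 4 to 46 reads per library, 154 in all. In the heterozygous comparison none of the 4 passed. The summed midbrain markers, given above, were also lower in homozygous than in wild-type libraries, though *Otx2* and *Lmx1b* among them were not. The part of these markers was not tested. Over the 9 libraries *Gch1* and the serotonergic sum had r = 0.73 (exact permutation p = 0.0247, adjusted 0.307 over 30 relations) and rho = 0.58 (exact permutation p = 0.108, adjusted 0.553). Without columns 3 and 7, the libraries farthest from the median, r was 0.41, and the relation did not pass the adjustment. With the genotype means removed r was 0.76. It was not particular to *Gch1*, as *Aldh1a1* and the same sum had r = 0.63 (exact permutation p = 0.0550, adjusted 0.330). That r was 0.07 without columns 3 and 7. The relations of the genes with marker sums were chosen after the values were seen, and the part of serotonergic cells in the difference of *Gch1* was not tested.

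**Figure D1:**
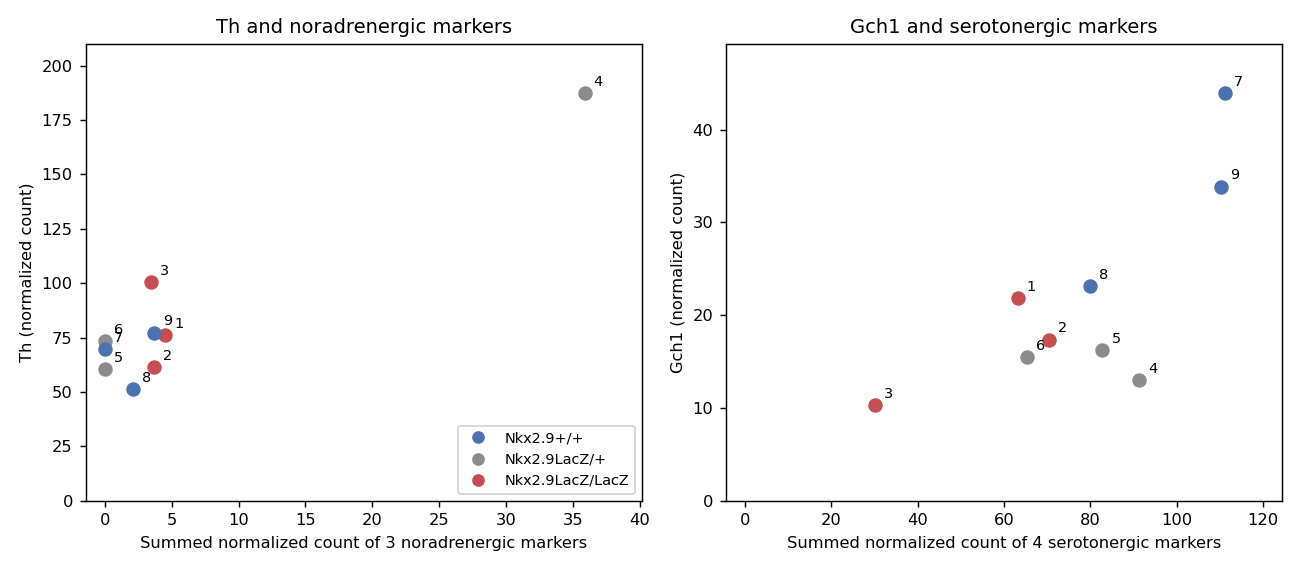
Normalized counts of *Th* against the sum of 3 noradrenergic markers (left) and of *Gch1* against the sum of 4 serotonergic markers (right), 1 point per library, numbered by column and coloured by labelled genotype. Column 4 lies alone at 187 for *Th* and 35.9 for the noradrenergic sum, and the wild-type columns 7 and 9 lie highest for *Gch1* and for the serotonergic sum.

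*Th* did not differ beyond the spread between libraries, and 1 library set its heterozygous mean. *Th* (ENSMUSG00000000214, chr7:142892752-142931128, minus strand) had normalized counts of 69.8, 51.2 and 77.3 in the wild-type columns 7 to 9, 187, 60.6 and 73.4 in the heterozygous columns 4 to 6, and 76.0, 61.3 and 100.5 in the homozygous columns 1 to 3. Apart from column 4, with 115 reads, the libraries lay between 51.2 and 100.5 and the 3 genotypes overlapped. The log2 fold change was 0.25 (SE 0.33) for homozygous and 0.53 (SE 0.33) for heterozygous over wild-type libraries, the latter a ratio of 1.44 (95% interval 0.881 to 2.35; unadjusted p = 0.135, limma). Without column 4 the heterozygous value was 0.03 (unadjusted p = 0.892, limma), and without column 5 it was 0.84 (unadjusted p = 0.0245, limma). DESeq2 on the recovered reads gave 0.67 (unadjusted p = 0.0479) for all 9 libraries.

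The same column 4 had the highest noradrenergic signal. The summed normalized count of *Dbh*, *Slc6a2* and *Phox2a* was 35.9 there (22 reads) and at most 4.52 in the other 8 libraries, 3 of which were at 0. *Slc6a2*, the noradrenaline transporter, had 17 reads in column 4 and 0 to 4 elsewhere, and *Dbh*, the enzyme that makes noradrenaline, had 5 and 0 to 2. *Phox2a* was at 0 in 8 of the 9 libraries, column 4 included. Column 4 also had the highest sum of mdDA transcription factors, 1234, with *En1* at 407 against 157 to 322 elsewhere. Over the 9 libraries *Th* followed the noradrenergic sum with r = 0.75 (exact permutation p = 0.0307, adjusted 0.307) and rho = 0.63 (exact permutation p = 0.0808, adjusted 0.553), and without columns 4 and 5 r was 0.13. With column 4 alone left out r was 0.25, so the relation rests on that library. *Th* and the sum of mdDA transcription factors had r = 0.79 (exact permutation p = 0.0427, adjusted 0.320) and rho = 0.53 (exact permutation p = 0.148, adjusted 0.553). Without column 4 that r was 0.13, so it rests on the same library. The part of noradrenergic or mdDA cells in the *Th* of column 4 was not tested.

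*Ddc* (ENSMUSG00000020182, chr11:11814101-11898144, minus strand) was the steadiest of the abundant genes. It had 150.0, 147 and 158 in columns 7 to 9, 173, 151 and 165 in columns 4 to 6 and 137, 133 and 158 in columns 1 to 3. The genotypes overlapped throughout, although 2 of the 3 homozygous libraries were the lowest of the 9. The log2 fold change of homozygous over wild-type libraries was -0.09 (SE 0.15), which bounds a ratio between 0.755 and 1.16 at 95%, and that of heterozygous over wild-type libraries was 0.10 (SE 0.15).

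**Figure D2:**
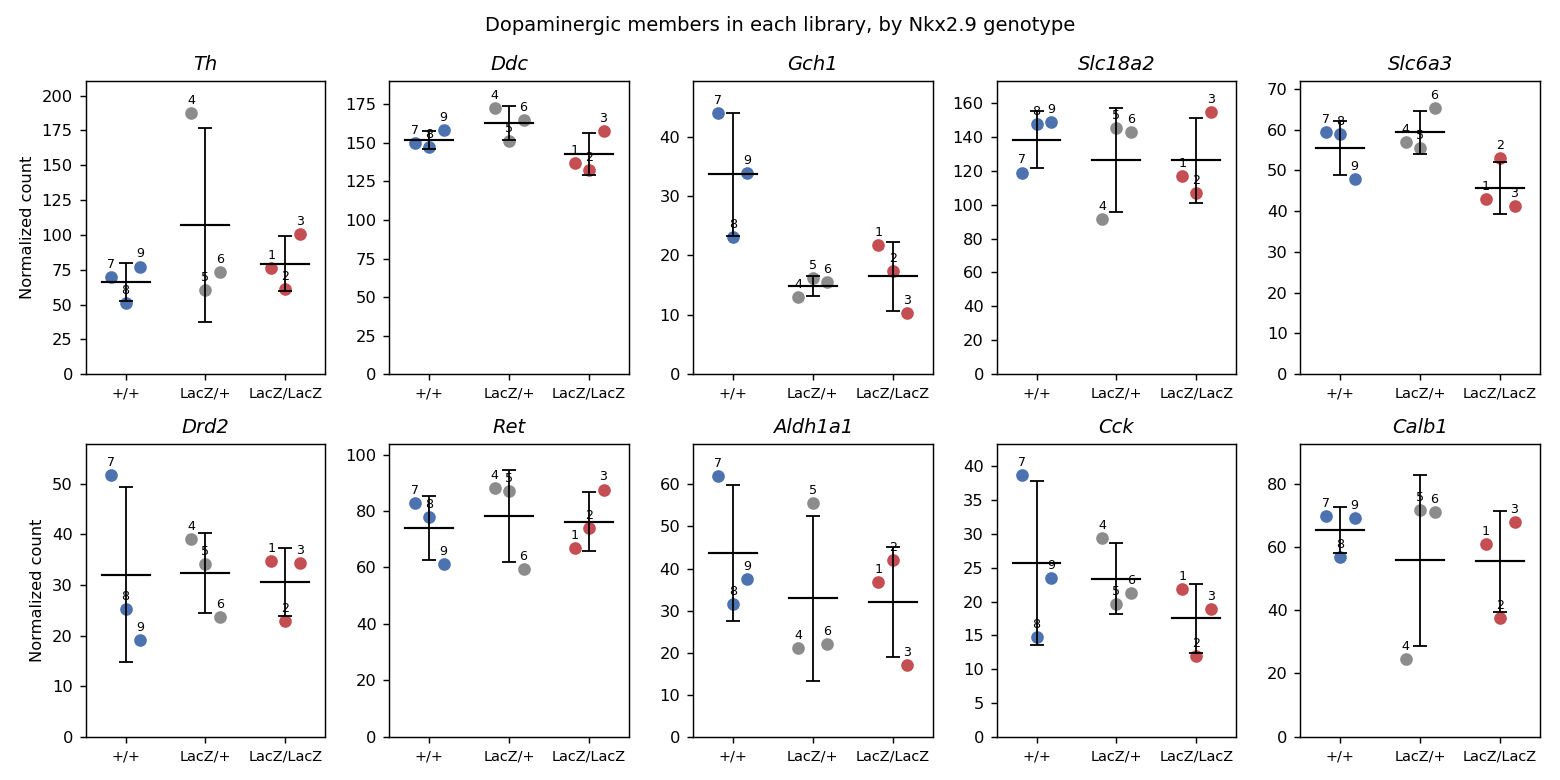
Normalized counts of the 10 genes in each library (points, numbered by column) with the mean and SD of 3 libraries per labelled genotype, each panel starting at 0. The wild-type points of *Gch1* lie above the other 6, *Th* is spread by column 4 at 187, and the genotypes overlap in most other panels.

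The transporters gave no difference that passed the test in limma. *Slc18a2* (ENSMUSG00000025094, chr19:59260896-59296012, plus strand) had normalized counts of 119, 147 and 149 in columns 7 to 9, 91.3, 145 and 143 in columns 4 to 6 and 117, 107 and 155 in columns 1 to 3. All genotypes overlapped, with the lowest value again in column 4, so that the heterozygous difference of -0.15 (SE 0.21) became 0.06 without it. An antisense gene, Gm29261, shares 111 exon bases with *Slc18a2* and had 0 reads.

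*Slc6a3* (ENSMUSG00000021609, chr13:73536747-73578672, plus strand) had its lowest mean in the homozygous libraries. It had 42.9, 53.0 and 41.2 in columns 1 to 3, 57.0, 55.5 and 65.3 in columns 4 to 6 and 59.5, 58.9 and 47.8 in columns 7 to 9. Homozygous and heterozygous libraries did not overlap, whereas the wild-type column 9 lay inside the homozygous range and columns 7 and 8 above it. The mean was 45.7 ± 6.40 (SD, n = 3) in the homozygous, 59.3 ± 5.25 (SD, n = 3) in the heterozygous and 55.4 ± 6.57 (SD, n = 3) in the wild-type libraries. Homozygous over heterozygous libraries gave a log2 fold change of -0.37 (SE 0.21), a ratio of 0.773 (95% interval 0.563 to 1.06; unadjusted p = 0.102, adjusted p = 0.999, limma), and the exact permutation test gave p = 0.1, the smallest possible. With eBayes run without its trend the unadjusted p was 0.0450 in limma. The value stayed between -0.48 and -0.30 when single libraries were left out. Against wild-type libraries the log2 fold change of the homozygous ones was -0.27 (SE 0.21), and the 95% interval of the ratio, 0.603 to 1.13, includes 1.

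In a bulk sample, fewer cells of a type and less RNA per cell cannot be told apart, and this holds for each of these genes. *Slc6a3* varied between libraries of a genotype no more than counting predicts. The variance within genotypes over that expected from read counts was 0.815 for *Slc6a3* and 0.817 for *Ddc* (6 residual degrees of freedom), against a median of 2.35 over 6368 genes of the same range of levels. It was 1.77 for *Gch1*, 7.21 for *Aldh1a1* and 16.1 for *Th*, and the value of *Th* rests on column 4. Without that library it was 4.03 for *Th* and 7.48 for *Aldh1a1*, then the highest of the 10 genes, beside a median of 2.02 over the same 6368 genes (5 residual degrees of freedom).

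Neither receptor gave a difference that passed the test in limma. *Drd2* (ENSMUSG00000032259, chr9:49340627-49408177, plus strand) had 51.7, 25.3 and 19.1 in the wild-type columns 7 to 9, which span the other 6 libraries at 22.9 to 39.1. Its log2 fold changes were 0.04, 0.11 and -0.07 (SE 0.36 each) for homozygous over wild-type, heterozygous over wild-type and homozygous over heterozygous libraries. *Ret* (ENSMUSG00000030110, chr6:118151745-118197718, minus strand), the signalling receptor for GDNF family ligands on which mdDA neurons depend for maintenance, had 59.6 to 88.0 in the 9 libraries, with means of 73.9 ± 11.4, 78.2 ± 16.2 and 76.2 ± 10.5 (SD, n = 3) in wild-type, heterozygous and homozygous libraries. Its log2 fold changes were 0.05, 0.07 and -0.02 (SE 0.21 each), in the same order.

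The subset markers had lower mean log2 values in heterozygous and homozygous than in wild-type libraries, and none of these differences passed the test in limma with all 9 libraries. Heterozygous *Cck*, at a log2 fold change of -0.048, turned sign with quantile normalization (0.0041) and without column 5, 6 or 7 (up to 0.29). *Aldh1a1* (ENSMUSG00000053279, chr19:20492715-20643465, plus strand), the retinaldehyde dehydrogenase of the ventral substantia nigra, had 62.1, 31.6 and 37.5 in columns 7 to 9, 21.2, 55.5 and 22.0 in columns 4 to 6 and 36.9, 42.1 and 17.2 in columns 1 to 3. High and low libraries occurred in every genotype, and the log2 fold changes over wild-type libraries were -0.47 (SE 0.41) for homozygous and -0.49 (SE 0.41) for heterozygous libraries. Without column 5 the heterozygous value was -0.93 (unadjusted p = 0.0352, limma), and without column 3 the homozygous one was -0.09. Its near copy *Aldh1a7* had at most 1.83 in any library.

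*Cck* (ENSMUSG00000032532, chr9:121489824-121495694, minus strand), a neuropeptide of the ventral tegmental area, had 38.8, 14.7 and 23.6 in columns 7 to 9, 29.3, 19.6 and 21.2 in columns 4 to 6 and 21.8, 11.9 and 18.9 in columns 1 to 3. The highest wild-type value, in column 7, rests on 15 reads, and without that library the homozygous log2 fold change moved from -0.46 (SE 0.38) to -0.13. Without column 8, the lowest wild-type value, it was -0.79 (unadjusted p = 0.0638, limma). *Calb1* (ENSMUSG00000028222, chr4:15881264-15908064, plus strand), a calcium-binding protein of the dorsal tier and the ventral tegmental area, had 69.8, 56.8 and 69.2 in columns 7 to 9, 24.4, 71.7 and 71.0 in columns 4 to 6 and 61.0, 37.5 and 67.8 in columns 1 to 3. Its lowest value was again in column 4, on 15 reads. Without that library the heterozygous log2 fold change went from -0.37 (SE 0.35) to 0.13.

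**Figure D3:**
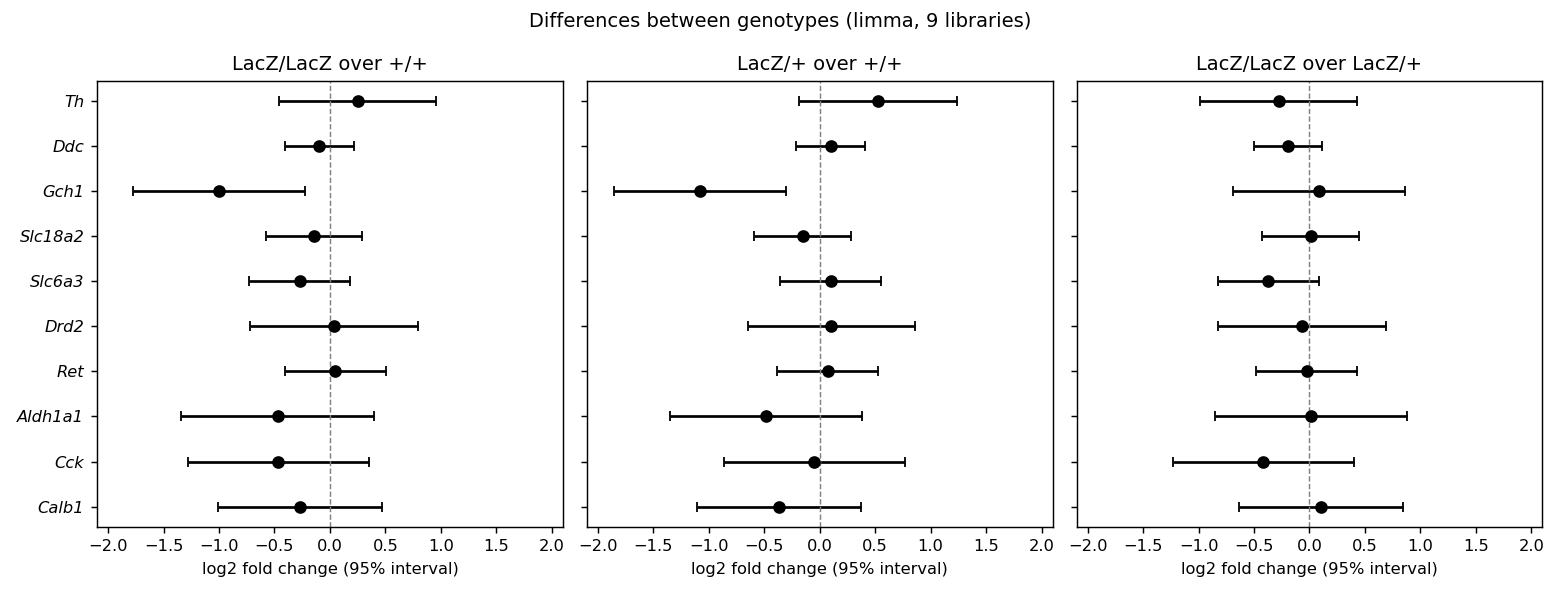
Log2 fold changes of the 10 genes (points) with 95% intervals from limma on 9 libraries, for homozygous over wild-type, heterozygous over wild-type and homozygous over heterozygous libraries. The intervals of *Gch1* lie below 0 in the first and second panels, at -0.999 and -1.08, and every other interval crosses 0.

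Counted together, 1 of the 10 genes (*Gch1*) had an unadjusted p under 0.05 in limma between homozygous and wild-type libraries, where 2.6% of the 16993 genes tested had one in either direction and 1.22% in this direction. The count was again 1 of 10 (*Gch1*) between heterozygous and wild-type libraries, beside 2.78% of all genes and 1.48% in this direction, and 0 of 10 between homozygous and heterozygous libraries, beside 2.64%. Values did not overlap for 1 of 10 genes in each comparison, where 9.52%, 6.91% and 8.71% of all genes did not overlap, so these shares are near the background. The median log2 fold change of the 10 genes was -0.21, 0.01 and -0.05 in the 3 comparisons, beside 0.01, -0.01 and 0.02 for all genes. In the homozygous comparison with wild-type libraries, 7 of the 10 lay below 0. After adjustment limma left 0 genes of all 16993 in any comparison, beside 441, 473 and 449 with an unadjusted p under 0.05, while edgeR left 0, 0 and 0 and DESeq2 0, 1 and 0.

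The study set *Slc6a3* against *Th* on adjacent sections, where a change can be seen region by region. Here their ratio was taken within each library, which averages over the pooled midbrains and cannot show a change in 1 region. *Slc6a3* over *Th* was 0.852, 1.15 and 0.619 in columns 7 to 9 and 0.564, 0.866 and 0.410 in columns 1 to 3. These ranges overlapped, and the log2 ratio was lower by -0.52 (SE 0.40) in the homozygous libraries (exact permutation test, two-sided p = 0.3). All 9 genes were lower relative to *Th* in these libraries, but so were 82.5% of the other 16992 genes tested, with a median of -0.24, and *Th* itself had a log2 fold change of 0.25 (SE 0.33). For 3 of the 9 the values did not overlap, beside 6.26% of all genes in either direction and 5.83% in this one. The count was 3 to 7 when single libraries were left out (7 without column 2). Groups of fewer libraries fail to overlap more readily, and the share of all genes is not given for them. *Calb1* over *Th* was 1.0, 1.11 and 0.895 in columns 7 to 9 and 0.802, 0.612 and 0.675 in columns 1 to 3, a log2 difference of -0.52 (SE 0.14). The differences were -1.25 (SE 0.50) for *Gch1* and -0.71 (SE 0.35) for *Cck*. Each of the 3 had an exact permutation p of 0.1, the smallest possible, and 0.3 after adjustment over the 9 genes. With the mean log2 of *Pitx3* and *Nr4a2* as the reference, *Calb1* differed by -0.02, *Slc6a3* by -0.03 and *Cck* by -0.22, and the values of 1 gene, *Ddc*, did not overlap (0.15, higher in the homozygous libraries). This reference moved as well, with log2 fold changes of -0.71 (SE 0.30) for *Pitx3* and 0.21 (SE 0.15) for *Nr4a2*. These differences therefore hold the shift of the reference, and the share of all genes not overlapping is not given for it.

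**Figure D4:**
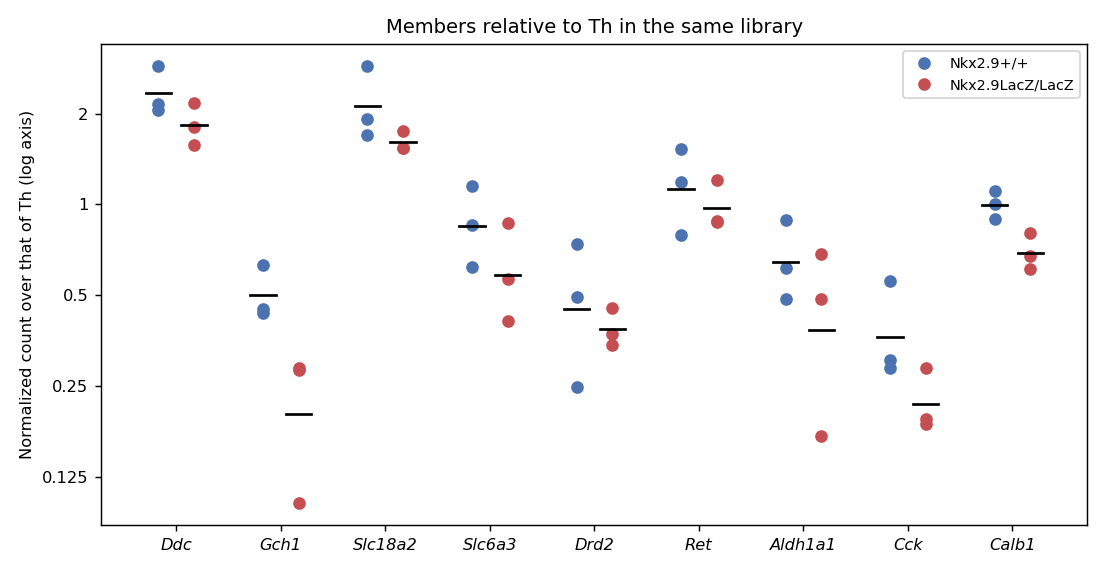
Normalized count of 9 genes over that of *Th* in the same library (points, log axis) for wild-type and homozygous libraries, with bars at the mean of the log ratios. The points of *Gch1*, *Cck* and *Calb1* do not overlap between genotypes, and those of the other 6 genes do.

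Levels of different genes were compared per kilobase of annotated exon. On that scale the order was *Th* at 35.6 ± 17.4 normalized counts per kb (SD, n = 9), *Ddc* at 34.2 ± 2.85, *Slc18a2* at 24.9 ± 4.27, *Cck* at 17.02 ± 6.11 and *Slc6a3* at 15.5 ± 2.32. *Drd2* at 12.4 ± 3.97, *Calb1* at 12.1 ± 3.48, *Ret* at 11.3 ± 1.68, *Aldh1a1* at 7.34 ± 3.11 and *Gch1* at 3.47 ± 1.73 followed. The enzymes that act on tyrosine and L-DOPA thus came first and the cofactor enzyme *Gch1* last. Of the 9 pairs of neighbours, 3 differed beyond their spread in an exact sign-flip permutation test over the 9 libraries, namely *Ddc* over *Slc18a2* (adjusted p = 0.0176), *Ret* over *Aldh1a1* (adjusted p = 0.0234) and *Aldh1a1* over *Gch1* (adjusted p = 0.0176). *Ddc* was the higher in 9 of 9 libraries, *Ret* in 8 of 9 and *Aldh1a1* in 9 of 9. *Slc18a2* over *Cck* just missed (7 of 9 libraries, adjusted p = 0.0527 in the same exact test), and passed without column 4 (adjusted exact p = 0.0469) or without column 7 (adjusted exact p = 0.0352). Without column 4 *Ddc* also came before *Th*, whose level was then 30.1 ± 6.26 normalized counts per kb (SD, n = 8). *Th* and *Ddc* did not differ beyond their spread, nor did *Cck* and *Slc6a3* or any neighbours from *Slc6a3* to *Ret*. With the length of the longest transcript in place of all exons, *Ddc* came before *Th* (8 of 9 libraries, adjusted exact p = 0.0234) and *Aldh1a1* rose to sixth, just before *Ret* (adjusted exact p = 0.875), so that call was lost. *Cck* over *Slc6a3* passed with these lengths (8 of 9 libraries, adjusted exact p = 0.0234), so the order depends on the length used.

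**Figure D5:**
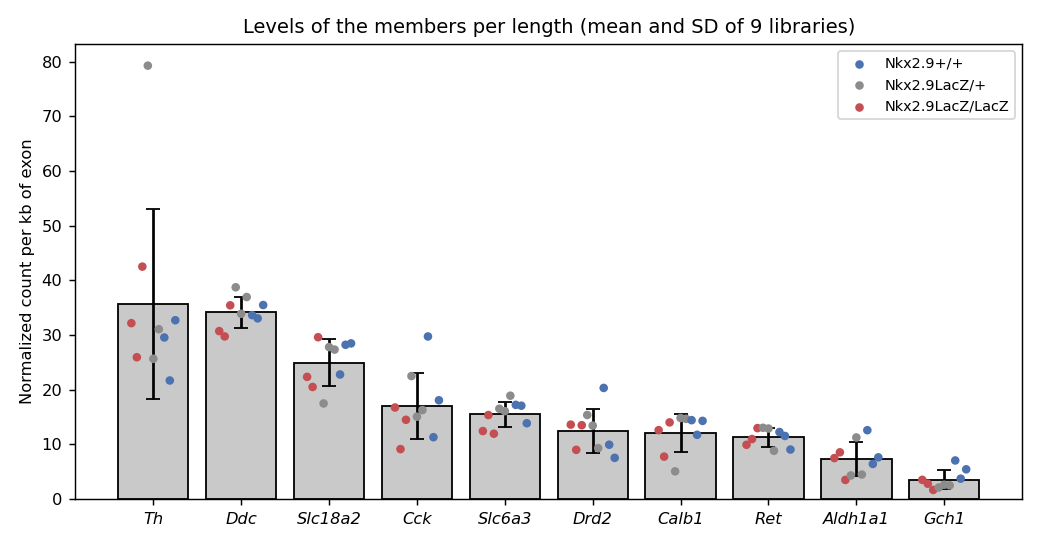
Normalized count per kb of exon of the 10 genes (bars, mean of 9 libraries; error bars, SD; points, libraries coloured by labelled genotype), in falling order and starting at 0. *Th* has the widest spread, with its highest point in the heterozygous column 4, and *Gch1* is lowest at 3.47.

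No shared movement of the genes from library to library passed the adjustment. Of the 45 pairs, 27 had r above 0 and 18 below, the median r was 0.07, and 4 pairs had an exact permutation p under 0.05, of which 0 passed the adjustment over 45 pairs (smallest adjusted p = 0.303). The closest pair was *Slc18a2* and *Calb1* with r = 0.84 (exact permutation p = 0.00674) and rho = 0.47 (exact permutation p = 0.213, adjusted 0.929), and without columns 2 and 4 r was 0.14, so the relation rests on those libraries. *Gch1* and *Aldh1a1* had r = 0.71 (exact permutation p = 0.0312, adjusted 0.486) and rho = 0.72 (exact permutation p = 0.0369, adjusted 0.929), and r = 0.62 without columns 7 and 9. With the genotype means removed this r was 0.76. *Th* and *Slc6a3*, both markers of the mdDA neuron, had r = -0.16 (exact permutation p = 0.704, adjusted 0.948) and rho = -0.40 (exact permutation p = 0.291, adjusted 0.929), and r = -0.62 without columns 4 and 8.

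Other genes of the pathway were read as lists. Of 8 cofactor and breakdown genes, 5 were tested. *Pts*, which acts after *Gch1* in the making of tetrahydrobiopterin, was higher in homozygous than heterozygous libraries (133 ± 11.4 against 97.7 ± 15.6, SD, n = 3; log2 fold change 0.45, SE 0.18, unadjusted p = 0.0274, adjusted p = 0.999, limma). This was 1 of the 5, beside 2.64% of all genes tested. Over wild-type libraries *Pts* was at 0.25 (homozygous) and -0.19 (heterozygous), with an SE of 0.18 each, and neither passed the test in limma. The most abundant of these genes were *Pts*, *Maoa* and *Qdpr*, with means of 114, 94.9 and 49.03 over the 9 libraries, and *Maoa* breaks dopamine down while *Qdpr* recycles the cofactor. *Gchfr*, *Maob* and *Dbh* were under the minimum. The other calls of the list were 0 of 5 in each direction, and its median log2 fold change was 0.07, -0.02 and 0.15 in the 3 comparisons.

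Of 10 ligands and receptors that belong to the same systems, 5 were tested and 0 had an unadjusted p under 0.05 in limma in any comparison. *Gfra1*, the GDNF co-receptor of *Ret*, had a mean of 437 and *Gfra2* of 163, while the ligands *Gdnf* and *Nrtn* had means of 1.58 and 5.20. *Cckbr* followed with a mean of 14.3, and *Drd3* had 0 reads in all libraries. The median log2 fold change of the 5 was -0.09, 0.58 and -0.06, with *Drd1*, *Cckbr* and *Nrtn* resting on 56 to 137 reads each.

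All 9 mdDA transcription factors on the list were tested, and 2 were lower in homozygous than in wild-type libraries at an unadjusted p under 0.05 in limma, beside 1.22% of all genes in this direction. *Pitx3*, a factor of terminal mdDA differentiation, had 16.6, 19.2 and 30.1 in columns 1 to 3, 32.6, 21.3 and 32.6 in columns 4 to 6 and 33.6, 37.2 and 35.3 in columns 7 to 9, and the homozygous and wild-type values did not overlap (-0.71, SE 0.30, unadjusted p = 0.0341, limma). *En1* was the other, again by the labels (-0.60, SE 0.25, unadjusted p = 0.0277, limma). *Nr4a2*, which drives *Th*, *Slc18a2* and *Slc6a3*, was the most abundant with 259, 357 and 284 in columns 7 to 9 and 388, 334 and 315 in columns 1 to 3, a log2 fold change of 0.21 (SE 0.15), followed by *En2* and *Otx2* with means of 292 and 275. The median of the 9 was 0.01, -0.05 and -0.06 in the 3 comparisons, with 0 calls in those that hold heterozygous libraries. Of 12 further subset markers, 10 were tested and 0 had an unadjusted p under 0.05 in limma in any comparison. The most abundant were *Foxp2*, *Slc17a6* and *Satb1*, with means of 905, 786 and 423, and the medians of the 10 were 0.02, -0.03 and 0.03.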

How the data were processed

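The authors extracted RNA from dissected E14.5 midbrains, depleted ribosomal RNA, pooled cDNA of 2 midbrains of a genotype per library, and sequenced paired ends. Alignment to GRCm38/mm10 used Hisat2, and counting used featureCounts. The versions, annotation release and strand setting of these tools are not given in the sources used here. The deposited signal is a normalized count per gene and library, which the authors made by dividing reads by a DESeq2 size factor. Their 3 deposited tables of DESeq2 comparisons (fold changes and p-values) were not used. All 210686 values above 0 were whole reads within 0.01 reads (100%), 0 columns were left unmapped, and depth was 1692963 to 5942192 reads.

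The main test was limma 3.58.1 (R 4.3.3; lmFit, eBayes with trend, two-sided) on log2 of the normalized count plus a pseudocount of 1, in one fit of the 9 libraries. P-values were adjusted by Benjamini-Hochberg over the 16993 genes with a mean of at least 5. It kept to the deposited unit, which is no count, and edgeR 4.0.16 and DESeq2 1.42.0 were run on recovered reads as alternatives. A fold change on this scale understates that of low genes. Exact tests permuted libraries, signs or pairings. Of the identifiers, 51719 matched the GRCm38 annotation and 193 did not. The limma step was tested on simulated data. Figures used matplotlib 3.10.9.

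The 10 genes and all lists were chosen with earlier results of these data known. Named beside them are list genes with an unadjusted p under 0.05, the 3 with the highest mean of each list, the 5 genes most like *Th* and those most like *Slc6a3*, and genes of the lists that a result turns on. A few genes that these rules or lists hold are not reported here and were left out of the lists' counts and sums. Alternatives were other pseudocounts (0.5 and 5), minimums (none and 20), scalings, tools, covariates (*Xist* and total reads), references and lengths, and leaving out each library.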

Additional observations from a re-analysis of the deposited data

How the results depend on the processing

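No paired analysis was possible because the columns carry no replicate numbers. Of 210 values per comparison under the alternatives, 201 kept their direction and side of the threshold for homozygous over wild-type libraries (7 reversed, 2 lost the call), 195 for heterozygous over wild-type (12 reversed, 3 gained it) and 182 for homozygous over heterozygous (27 reversed, 1 gained it). *Gch1* stayed lower in both comparisons with wild-type libraries in each alternative. The causes of these shifts were not tested. The number of the 10 genes called was 0 to 1 (homozygous over wild-type) and 1 to 3 (heterozygous over wild-type) when single libraries were left out, 2 with DESeq2 in the latter (*Th*) and 1 without the eBayes trend for homozygous over heterozygous (*Slc6a3*). Genes not overlapping relative to *Th* numbered 3 to 7 on leaving out libraries, 7 without column 2, and 1 with *Pitx3* and *Nr4a2* as reference. The shares of all genes in these settings are not given. Leaving out column 7 or column 4 left 4 and 3 neighbours apart in the order of levels and 0 pairs after adjustment; this, the spread without column 4 and upper-quartile scaling of the overlaps were chosen after seeing the data.

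Signs turned for small log2 fold changes. For homozygous over wild-type libraries these were *Drd2* (-0.042 with *Xist* as covariate; -0.26 to 0.44 leaving out libraries) and *Ret* (-0.083 to 0.13). For heterozygous over wild-type, leaving out libraries gave *Slc18a2* -0.27 to 0.064, *Slc6a3* -0.0022 to 0.15, *Drd2* -0.19 to 0.51, *Ret* -0.059 to 0.25, *Cck* -0.38 to 0.29 (0.0041 with quantile normalization) and *Calb1* -0.63 to 0.13. For homozygous over heterozygous, they gave *Th* -0.59 to 0.22, *Gch1* -0.14 to 0.37, *Slc18a2* -0.21 to 0.12, *Drd2* -0.27 to 0.12, *Ret* -0.21 to 0.072, *Aldh1a1* -0.23 to 0.45 and *Calb1* -0.40 to 0.36. There edgeR gave -0.021 for *Slc18a2*, -0.075 for *Aldh1a1* and -0.061 for *Calb1*, DESeq2 gave -0.026, -0.067 and -0.049 for the same genes, and quantile normalization gave -0.039 for *Aldh1a1*. With total reads as covariate *Slc18a2* was -0.077, *Drd2* 0.11 and *Ret* 0.035, and with *Xist* *Ret* was 0.036.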

Other observations

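The 5 genes most like *Th* over the 9 libraries, among the 12490 genes whose mean reached 20 normalized counts, were *Fbrsl1* (r = 0.95), *Znrf1* (0.95), *Timm50* (0.94), *Slc9a3r1* (0.94) and *Idh3g* (0.93). All 5 were highest in column 4, the library where *Th* was 187, with *Fbrsl1* at 331 there and 195 to 251 elsewhere. Without column 4 the r values were 0.83, 0.79, 0.81, 0.71 and 0.69. They were picked as the highest of 12490, so they carry no p. The 2 genes most like *Slc6a3* were *Lima1* (r = 0.95) and *Fam220a* (0.95), at 0.96 and 0.95 without column 4. *Lima1* had 58.7, 75.0 and 55.8 in the homozygous columns 1 to 3, as *Slc6a3* had its lowest values in columns 1 and 3.

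*Calb1* against the sum of the 3 noradrenergic markers had r = -0.82 (exact permutation p = 0.00742, adjusted 0.223 over 30 relations) and rho = -0.76 (exact permutation p = 0.0239, adjusted 0.553) over 9 libraries, 3 of which had a sum of 0. Without columns 4 and 5 r was -0.43, and the relation did not pass the adjustment. The relation was chosen after the values were seen.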
